A study of Mus musculus with 4 samples.

Results

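The interferon response and MHC class I genes described here are 36 genes listed by symbol, of which 32 could be measured in the hypothalamus of mice carrying C26 colon adenocarcinoma, out of 19938 genes measured in all. A gene counted as measured when a probe set of the array carried its symbol alone, and the probe set with the highest mean over all arrays stood for the gene. H2-D1, H2-K1 and Igtp were found only on probe sets that carry several symbols, and Ifi44 on no named probe set, so these 4 genes have no values. The study asked how hypothalamic transcripts differ with an increasing number of injected tumour cells. Total RNA was hybridized to 4 arrays, 1 per group. All mice were male CDF1 animals, a cross of BALB/c and DBA/2, aged 10 to 11 weeks. The control array held pooled RNA of 4 mice that received a sham injection of 0.2 ml buffered saline under the skin of the flank. The array called 0.5M held pooled RNA of 4 mice given 500000 C26 cells, the 1M array that of 3 mice given 1000000 cells, and the 2M array RNA of 1 mouse given 2000000 cells, although another label of that sample speaks of a pool. Every hypothalamus was taken on day 20. C26 is a mouse line that is implanted as a model of cancer cachexia, and these tumours grew in the flank, not in the brain. With 1 array per group, each difference between groups has no replicate check, and their small number sets the precision.

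Interferons are cytokines that cells release on sensing viral nucleic acid or inflammation. Type I interferons act on a promoter sequence called the interferon-stimulated response element, ISRE, and interferon gamma on the gamma-activated site, GAS. The induced genes encode antiviral effectors, GTPases that attack intracellular parasites, and the machinery that cuts peptides and loads them onto MHC class I. In the healthy brain most of these genes are expressed at a low level, mainly in microglia, endothelium and other non-neuronal cells.

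Promoters of 4 members are shown, 2 of antiviral effectors, 1 of the peptide transporter and 1 of the MHC light chain, since such sequences carry the elements through which interferon acts. The windows run from 250 bases before to 50 bases after a transcription start in RefSeq, assembly GRCm38.p6. That assembly is of C57BL/6J, so bases in CDF1 mice may differ. Capitals mark every match to the ISRE pattern, 2 copies of GAAA with any 2 bases between, or its reverse complement, or to the GAS pattern, TTC and GAA with any 3 bases between, which reads the same on both strands. The windows are Ifit3 (chr19:34583279-34583578, plus strand), Oas1a (chr5:120907476-120907775, minus strand), Tap1 (chr17:34187306-34187605, plus strand) and B2m (chr2:122147437-122147736, plus strand), each printed 5′ to 3′ in the direction of its gene.
Ifit3: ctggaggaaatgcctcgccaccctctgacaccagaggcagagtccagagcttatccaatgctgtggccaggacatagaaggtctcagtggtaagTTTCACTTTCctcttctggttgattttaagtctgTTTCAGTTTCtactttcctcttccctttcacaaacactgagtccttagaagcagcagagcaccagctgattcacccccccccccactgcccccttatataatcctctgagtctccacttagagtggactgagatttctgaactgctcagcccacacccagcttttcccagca
Oas1a: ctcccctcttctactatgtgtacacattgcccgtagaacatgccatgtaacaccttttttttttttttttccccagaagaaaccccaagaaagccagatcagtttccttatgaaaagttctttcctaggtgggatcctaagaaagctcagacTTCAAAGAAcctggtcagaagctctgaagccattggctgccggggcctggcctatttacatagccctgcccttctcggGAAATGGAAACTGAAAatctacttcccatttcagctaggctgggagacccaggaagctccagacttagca
Tap1: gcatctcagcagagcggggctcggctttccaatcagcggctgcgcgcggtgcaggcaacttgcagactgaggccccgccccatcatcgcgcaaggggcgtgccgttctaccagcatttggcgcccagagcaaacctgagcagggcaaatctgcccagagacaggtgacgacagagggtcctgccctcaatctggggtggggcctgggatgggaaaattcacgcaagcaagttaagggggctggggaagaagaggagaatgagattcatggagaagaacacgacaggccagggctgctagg
B2m: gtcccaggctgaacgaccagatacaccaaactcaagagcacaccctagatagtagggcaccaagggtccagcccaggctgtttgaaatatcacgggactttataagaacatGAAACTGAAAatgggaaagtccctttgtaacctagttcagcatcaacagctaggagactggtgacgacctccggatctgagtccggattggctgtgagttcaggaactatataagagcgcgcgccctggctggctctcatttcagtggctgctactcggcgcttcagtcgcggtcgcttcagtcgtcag

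In these sequences Ifit3 holds 2 ISRE matches, Oas1a 2 that overlap by 4 bases together with 1 GAS match, B2m 1 ISRE match and Tap1 none. The Tap1 window shares 275 bases with that of Psmb9, which lies on the opposite strand. Windows were found for 28 of the 36 genes. An ISRE match stood in 13 of the 28 and a GAS match in 8 of them, with 4 genes holding both and 11 neither. Of all 27025 genes with a window, 3.99% hold the ISRE pattern and 9.55% the GAS pattern, and of all 32851 windows of this length 3.44% and 8.3%. In Ifitm3 and Bst2 the GAS match shares 3 bases with an ISRE match. A match is a description of the letters, and no match says only that they are not in this window.

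The tissue and the arrays were checked on marker lists. Of 12 listed hypothalamic neuron markers 11 were measured, and 10 lay above the filter used below; Pmch stood between 11.4 and 11.8 log2 in the 4 arrays. Their median difference from control was 0.31, 0.28 and 0.36 log2 for the 3 cell numbers, with 9, 10 and 7 of the 11 above control. Of the 10, 6 had an unadjusted limma p under 0.05, Oxt and Avp among them, where 10.8% of all genes did. Pomc went the other way, at -0.20, -0.21 and -0.46 log2. Hcrt was close to control, at 0.15, 0.05 and -0.03 log2. Platelet Ppbp lay 1.03 to 1.38 log2, erythroid Alas2 0.79 to 0.94 and endothelial Vwf 0.71 to 0.78 above control, each with a limma adjusted p of 0.119. Other markers on these lists lay nearer control or below it. Platelet Pf4 differed by 0.02, 0.32 and -0.06 log2 for the 3 cell numbers, and Itga2b by -0.13, 0.06 and 0.09. Erythroid Slc4a1 differed by 0.15, 0.38 and 0.25 log2. Of the 9 endothelial markers 6, 5 and 6 lay above control, while Tek differed by -0.31, -0.32 and -0.33 log2. The part of these shifts in the members' values was not tested. The 9 measured T and NK cell markers all lay below the filter, with median levels between 4.51 and 4.87 log2. Of the 7 measured pituitary markers, Gh and Prl stood apart in the 0.5M array, at 4.68 and 3.85 log2 above control. In the 1M array Gh and Prl were 0.78 and 0.55 log2 above control, and in the 2M array 0.72 and 0.56. At 0.5M Tshb, Lhb, Fshb and Pitx1 lay 0.16 to 0.34 log2 above control, and Cga differed by -0.05 log2. Pairs of arrays correlated at 0.984 to 0.994 over all probe sets. The median of all measured genes lay -0.01, 0.07 and 0.03 log2 from control for 0.5M, 1M and 2M.

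No interferon response or MHC class I gene passed the test against control, and the set as a whole lay near or below the control array. The median difference of the 32 members from the control array was -0.13 log2 at 0.5M, 0.09 at 1M and -0.15 at 2M. Beside the medians of all genes just given, the members lay lower at 0.5M and 2M and at about the same place at 1M. Under cyclic loess scaling the member median at 1M turned to -0.02 log2, with all genes at 0.03. The members that stood lowest were B2m, Ifi27, Gbp4, Ifit1, Iigp1 and Oas1a, and those that stood highest were Rsad2 at 0.5M, Oas1a at 1M and Bst2 at 2M.

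**Figure D1:**
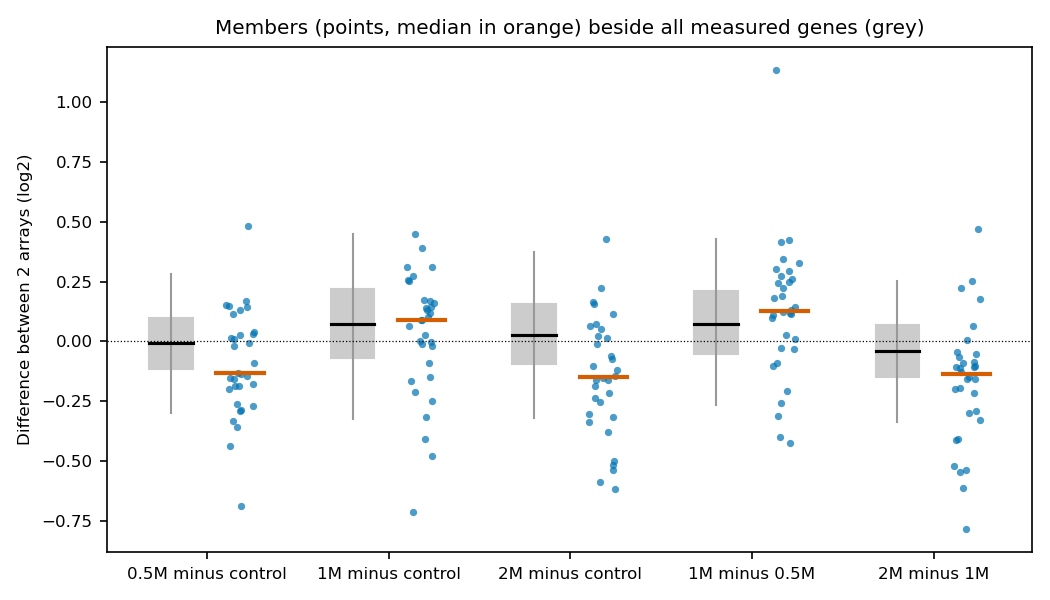
Differences between pairs of arrays in log2 (vertical axis) for 5 pairs (horizontal axis). Blue points are the 32 members with their median in orange; the grey box, black line and thin line are the quartiles, the median and the range from percentile 5 to percentile 95 of all 19938 measured genes. The member median lies at -0.13, 0.09 and -0.15 log2 for the 3 cell numbers against control.

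At a size of 0.5 log2, a 1.41-fold difference, 0 members were above control in any tumour-bearing array, where the share of all measured genes was 0.692% at 0.5M, 3.21% at 1M and 1.78% at 2M. Below control by that size, 1 member, Oas1a, was found at 0.5M, where the share of all genes was 0.697%. At 1M 1 member, B2m, was found against 1.59% of all genes. At 2M 5 members of 32, or 15.6%, were found against 1.23% of all genes, and these were Ifit1, Gbp4, Iigp1, B2m and Ifi27. Iigp1, at -0.50 log2, and Ifit1, at -0.52, lay just past that size. These counts compare 2 arrays each, and the 3 share the control array. Among genes past the filter described next, the share below control by 0.5 log2 was 0.293% at 0.5M, 2.14% at 1M and 1.25% at 2M, with 0, 1 and 2 members. At the smaller size of 0.25 log2, members below control were 8 at 0.5M against 7.8% of all genes, 4 at 1M against 8.21% and 10 at 2M against 8.48%. Members above control by 0.25 log2 were 1 at 0.5M against 6.7% of all genes, 7 at 1M against 21.1% and 1 at 2M against 13.2%.

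Members with a mean level of at least 6.59 log2, the 40th percentile of all genes, numbered 16, and the other 16 were dimmer. Only the brighter ones entered limma. In the test that set the control array against the other 3, 0 of the 16 passed at an adjusted p of 0.05, where 0.0502% of all 11963 genes tested passed. At an unadjusted p under 0.05 there were 2, B2m and Ifi27, against 10.8% of all genes. In the test for a linear trend with cell number 0 members passed by limma, with 0.0% of all genes passing, and 2, again B2m and Ifi27, had an unadjusted p under 0.05 against 6.52% of all genes. The spread in both tests is that between cell numbers and pool sizes, with 2 residual degrees of freedom.

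**Figure D2:**
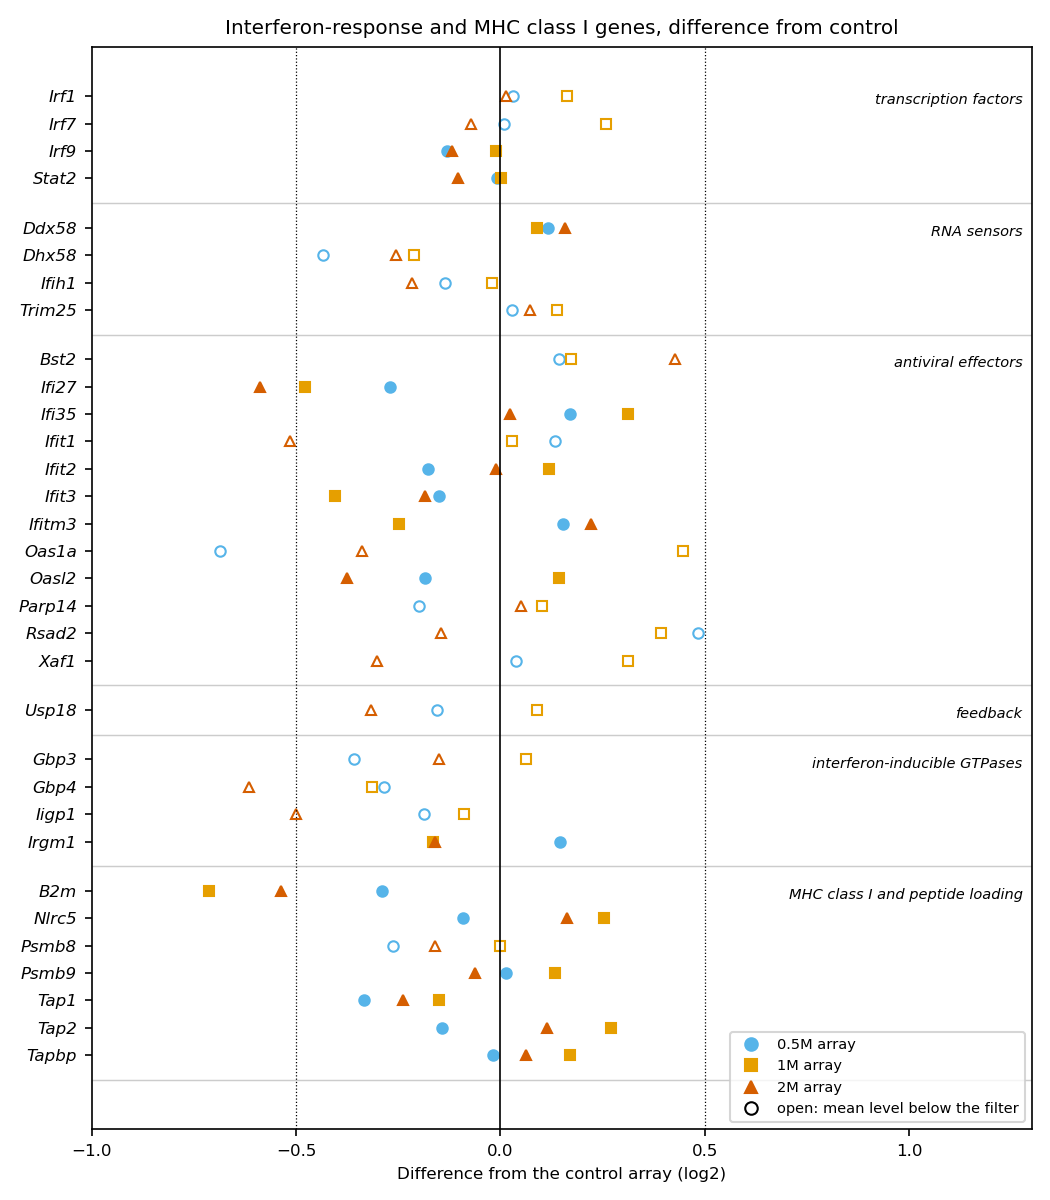
Difference of each member from the control array in log2 (horizontal axis), by role, for the 0.5M (circle), 1M (square) and 2M (triangle) arrays. Filled symbols are members past the filter of 6.59 log2, open symbols those below it, and dotted lines mark 0.5 log2; 6 different members cross the left line in at least 1 array and 0 cross the right one.

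The transcription factors of the pathway stayed close to control. Stat2, a subunit of the complex that binds the ISRE, stood at 7.77 log2 in the control, 7.76 at 0.5M, 7.77 at 1M and 7.66 at 2M. Its DNA-binding partner Irf9 stood at 7.87, 7.74, 7.86 and 7.75 log2 in the same order. The spans of both are small, and the 1M array matched the control in each. Irf7, which amplifies type I interferon production, lay below the filter at 5.53, 5.54, 5.79 and 5.46 log2 and was highest at 1M. Irf1, a factor that interferon gamma induces, has 2 probe sets. Its probe set with the higher mean differed from control by 0.03, 0.16 and 0.01 log2 for 0.5M, 1M and 2M, and the other by -0.04, 0.37 and 0.42. The choice of probe set therefore moved the 2M value of Irf1, and neither probe set was 0.5 log2 from control.

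The sensors of viral RNA varied little, apart from one. Ddx58, which encodes the RNA sensor RIG-I, stood at 7.17 log2 in the control and 7.29, 7.26 and 7.33 for 0.5M, 1M and 2M. All 3 tumour-bearing values of Ddx58 lay above the control, by 0.12 ± 0.03 log2 (SD, n = 3 arrays of different cell number; limma adjusted p = 0.635). Such SDs hold no uncertainty of the control array. Dhx58, a relative of that sensor without a signalling domain, lay below the filter at 5.35 log2 in the control and 4.92, 5.14 and 5.10 in the tumour-bearing arrays. The control was the highest of the 4 for Dhx58. Ifih1, another sensor of double-stranded RNA, differed from control by -0.13, -0.02 and -0.22 log2, and Trim25, a ubiquitin ligase that acts on RIG-I, by 0.03, 0.14 and 0.07.

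Antiviral effectors moved apart from one another. Ifi27, a small membrane protein gene and a widely used marker of type I interferon exposure, gave 8.24 log2 in the control and 7.97, 7.76 and 7.65 for 0.5M, 1M and 2M (probe set 10397975). The values descended in the order of cell number. The mean of the tumour-bearing arrays was 0.734 of the control level, a difference of -0.45 ± 0.16 log2 (SD, n = 3 arrays; limma SE 0.14, unadjusted p = 0.0153, adjusted p = 0.375). The trend was -0.28 ± 0.07 log2 per 1000000 cells (SE; limma unadjusted p = 0.0044, adjusted p = 0.631). Leaving out the 1M array gave Ifi27 an adjusted p of 0.086, the lowest of any member in the trend under the alternatives run.

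The Ifit genes, whose proteins bind foreign RNA and limit its translation, did not share a pattern. Ifit1, below the filter, stood at 6.27 log2 in the control, 6.40 at 0.5M, 6.30 at 1M and 5.75 at 2M. The low value belongs to the single animal of 2M, while the pools lay near the control. Ifit3 stood at 7.48, 7.33, 7.07 and 7.29 log2 in the same order, lowest at 1M (mean difference -0.25 ± 0.14, limma adjusted p = 0.511). Ifit2 differed from control by -0.18, 0.12 and -0.01 log2. The promoters of Ifit1 and Ifit3 each hold 2 ISRE matches and that of Ifit2 none, and the arrays that were low differed even between Ifit1 and Ifit3.

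Oas1a, an oligoadenylate synthetase gene whose product activates RNA decay, had the widest span of all members. It stood at 5.94 log2 in the control, 5.25 at 0.5M, 6.38 at 1M and 5.60 at 2M (probe set 10533256, below the filter). The 1M array was 2.19-fold above the 0.5M array, and the control lay between them. Oasl2, a related gene past the filter, had the same highest array, with 7.48 log2 in the control and 7.30, 7.62 and 7.11 for 0.5M, 1M and 2M (limma adjusted p = 0.814).

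Rsad2, which encodes the antiviral enzyme viperin, was 5.47 log2 in the control, 5.95 at 0.5M, 5.86 at 1M and 5.32 at 2M. Both pools of tumour-bearing mice lay above the control and the single animal below it. With cyclic loess or median centring its 0.5M difference was 0.51 log2, past the size used for counting. Bst2, the gene of the virus-tethering protein tetherin, was 6.15, 6.30, 6.33 and 6.58 log2 in the order control, 0.5M, 1M and 2M. The control was the lowest and the 2M array the highest for Bst2, and under cyclic loess the 1M difference was 0.07 log2 in place of 0.17. Both genes lie below the filter. When limma was run with no filter, neither passed: Bst2 had an unadjusted p under 0.05 in the trend and, at 0.780, the lowest adjusted p of the 32 members there. The mean difference of Rsad2 was 0.24 log2, 0.12 without the 0.5M array and 0.44 without the 2M array, and that of Bst2 was 0.25 log2 and 0.16 without the 2M array.

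Ifitm3, a membrane protein gene that hinders viral entry and is abundant in vessels, gave 9.44, 9.59, 9.19 and 9.66 log2 in the order control, 0.5M, 1M and 2M. The 1M array was the lowest and 2M the highest, with the control between them (limma adjusted p = 0.949). Ifi35, an interferon-induced leucine zipper protein gene, gave 6.58, 6.75, 6.90 and 6.61 log2, highest at 1M (mean difference 0.17 ± 0.14, limma adjusted p = 0.639). Without the 1M array that mean difference was 0.0972 log2. Xaf1, which encodes an antagonist of an apoptosis inhibitor, differed by 0.04, 0.31 and -0.30 log2, and Parp14, an ADP-ribosyltransferase gene, by -0.20, 0.10 and 0.05. Usp18, the protease gene that restrains type I interferon signalling, differed by -0.16, 0.09 and -0.32. For Xaf1 and Usp18, as for Oasl2 and Oas1a, the highest array was 1M.

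**Figure D3:**
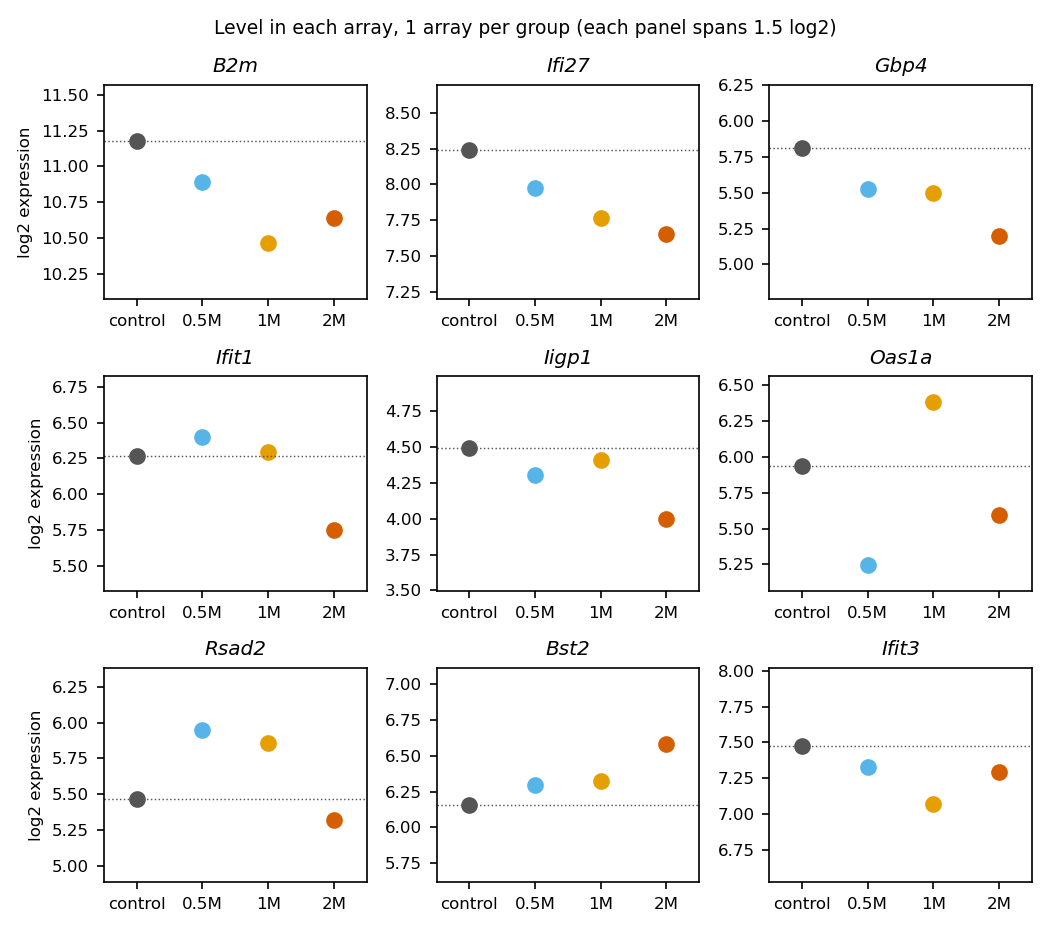
Deposited log2 expression (vertical axis, each panel spanning 1.5 log2) of 9 members in the control, 0.5M, 1M and 2M arrays (horizontal axis), 1 point per array, with the control level dotted. B2m, Ifi27 and Gbp4 lie below control in each tumour-bearing array, Ifit1 and Iigp1 are lowest at 2M, and Oas1a runs from 5.25 at 0.5M to 6.38 at 1M.

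The interferon-inducible GTPases disrupt the vacuoles of intracellular pathogens. The control was the highest array for 2 of the 4 measured, Gbp4 and Iigp1, and for 22.6% of all genes. Gbp4, a guanylate-binding protein gene, was 5.81 log2 in the control and 5.53, 5.50 and 5.20 for 0.5M, 1M and 2M (probe set 10531987). The tumour-bearing arrays lay -0.40 ± 0.18 log2 from control (SD, n = 3 arrays), and Gbp4 was below the filter. With no filter its unadjusted p was under 0.05 in both limma tests, and it did not pass after adjustment. Iigp1, an immunity-related GTPase gene, was 4.50, 4.31, 4.41 and 4.00 log2 in the same order and also below the filter. Gbp3, likewise below it, was 5.92, 5.56, 5.98 and 5.77 log2, with the 0.5M array low. Its mean difference of -0.15 log2 became -0.04 without the 0.5M array and -0.26 without the 1M array, and that of Iigp1, -0.26, became -0.14 without the 2M array. Irgm1, the regulator of this GTPase family, was past the filter and differed by 0.15, -0.17 and -0.16 (limma adjusted p = 0.897). The median of the 4 was -0.24, -0.13 and -0.33 log2 for the 3 cell numbers.

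Microglial markers, like the GTPases, had their lowest median at 2M. Their 11 measured genes had a median of -0.08, 0.09 and -0.25 log2 from control for 0.5M, 1M and 2M, so at 1M they lay above control where the GTPase median lay below it. At 2M 8 of the 11 were below control, with Cx3cr1 at -0.64 and Itgam at -0.65 log2, whereas C1qa, C1qb and C1qc were at 0.29, 0.21 and 0.41. Summed on the linear scale, the list gave 2632 units in the control and 2589, 2798 and 2496 for 0.5M, 1M and 2M. The 9 endothelial markers had medians of 0.07, 0.01 and 0.02 log2 from control and linear sums between 2697 and 2831. The part of these cells in the members' values was not tested. In tissue RNA, fewer cells of a type and less RNA per cell cannot be told apart.

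The MHC class I branch held the largest difference at 1M. B2m, the light chain shared by all MHC class I molecules, was 11.18 log2 in the control, 10.89 at 0.5M, 10.46 at 1M and 10.64 at 2M (probe set 10475414). Every tumour-bearing array was below the control, and the lowest was 1M. The mean of the 3 was 0.701 of the control level, a difference of -0.51 ± 0.21 log2 (SD, n = 3 arrays; limma SE 0.16, unadjusted p = 0.0178, adjusted p = 0.383). Leaving out the 0.5M array gave the lowest adjusted p of any member in this test, 0.208, also for B2m. The 8 markers of the meninges gave linear sums of 4214 units in the control, 3633 at 0.5M, 3191 at 1M and 3815 at 2M. The sum, like B2m, was highest in the control and lowest at 1M. Of the single genes Dcn, Slc6a13 and Ogn had that order, while Col1a1, Col1a2 and Col3a1 were lowest at 0.5M, Lum at 2M, and Igf2 was highest at 2M. Sums of the 8 choroid plexus markers were 1327, 1196, 1130 and 1319 units in the order control, 0.5M, 1M and 2M. Those sums too were highest in the control and lowest at 1M. Kcnj13, the brightest of the 8, differed from control by -0.37, -0.60 and 0.06 log2 and was highest at 2M. Otx2 alone was highest in the control and lowest at 1M. Folr1, Kl and Aqp1 were highest at 1M and Ttr at 0.5M, while Clic6 was lowest at 2M and Slc4a5 at 0.5M. Sums of the other MHC class I and peptide-loading genes listed below were also highest in the control and lowest at 1M, at 16368 and 14398 units. By gene that list went the other way at 1M, where 15 of its 23 measured genes lay above control and 8 below, with a median of 0.05 log2. The part of any of these lists in the B2m values was not tested. The heavy chain genes H2-D1 and H2-K1 have no values, so the light chain cannot be set beside them.

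The peptide-loading genes were nearer control. Tap1, a subunit of the peptide transporter, was 6.86 log2 in the control and 6.53, 6.71 and 6.63 for 0.5M, 1M and 2M. The control was the highest array for Tap1 (mean difference -0.24 ± 0.09 log2, limma adjusted p = 0.469). Its partner Tap2 differed from control by -0.14, 0.27 and 0.11 log2, so the control lay between the tumour-bearing arrays. Psmb9, the immunoproteasome subunit gene whose promoter window overlaps that of Tap1, differed by 0.01, 0.13 and -0.06 log2. Psmb8, another such subunit, was below the filter and differed by -0.26, -0.00 and -0.16. Tapbp, the loading chaperone tapasin, differed by -0.02, 0.17 and 0.06 log2.

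Nlrc5, the transactivator of MHC class I promoters, stood above control at the higher cell numbers over most of its probe sets. The array has 19 probe sets for it. The one with the highest mean gave 9.03 log2 in the control and 8.94, 9.29 and 9.20 for 0.5M, 1M and 2M (limma adjusted p = 0.808). At 1M 18 of the 19 probe sets were above control with a median of 0.26 log2, where all genes had a median of 0.07. Of the 19, 4 were at least 0.5 log2 above control at 1M, where 3.21% of all genes were. At 2M 15 of the 19 were above control with a median of 0.25 log2, where 43.7% of all genes were below it. At 0.5M 8 were above control, with a median of -0.04, where 51.7% of all genes were below it. Under cyclic loess the counts above control were 16 at 1M and 12 at 2M. The 4 probe sets at least 0.5 log2 above control at 1M were dim, at 5.21 to 6.37 log2 in the control. Among those above 7 log2 there, 10574102, 10574153 and 10574159 differed by -0.04, -0.06 and -0.02 log2 at 2M. At 2M 10574161 differed by 0.00, 10574141 by 0.45 and 10574100, the one used, by 0.16. At 1M 10574161 was -0.10 log2 from control. Probe sets of 1 gene are measured on the same RNA, so they are not replicates, and Nlrc5 and B2m lay on opposite sides of the control at 1M and 2M.

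**Figure D4:**
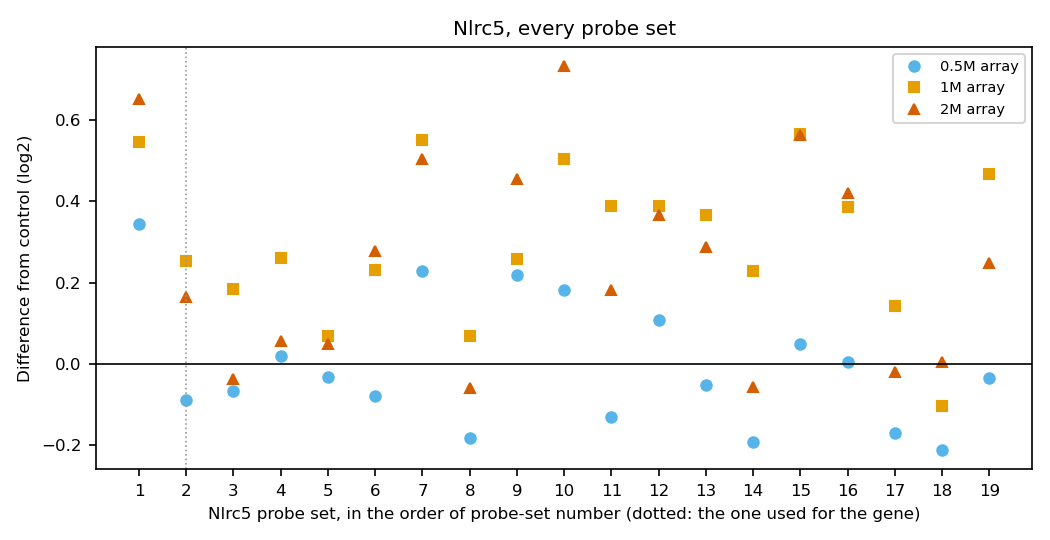
Difference from the control array in log2 (vertical axis) for each of the 19 Nlrc5 probe sets in order of probe-set number (horizontal axis), for the 0.5M, 1M and 2M arrays; the dotted line marks the probe set used for the gene. The 1M points reach 0.57 and the 2M points 0.73 log2, and 18 and 15 of the 19 lie above 0.

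The tumour-bearing arrays were also compared with one another. The members' median was 0.13 log2 for 1M minus 0.5M and -0.14 for 2M minus 1M, where all genes had medians of 0.07 and -0.04. Of the 32 members 23 were higher at 1M than at 0.5M, and 9, or 28.1%, were lower, against 34.7% of all genes lower. At least 0.5 log2 higher at 1M than at 0.5M was 1 member, Oas1a, against 2.6% of all genes, and 0 members were lower by that size against 0.692%. From 1M to 2M, 26 of the 32 were lower, or 81.2%, against 60.1% of all genes. At least 0.5 log2 lower at 2M than at 1M were 5 members, Ifit1, Oas1a, Oasl2, Rsad2 and Xaf1, against 1.14% of all genes, and 0 were higher by that size against 0.522%. The 1M array was the highest of the 4 for 16 of the 32 members and for 42.6% of all genes. The 7 oligodendrocyte markers gave linear sums of 9941 units in the control, 9455 at 0.5M, 11000 at 1M and 8866 at 2M. The sum, like Xaf1, was highest at 1M and lowest at 2M, as were Mbp, Mog, Mag and Sox10. Mobp was highest at 2M, Cnp highest in the control and Olig2 lowest at 0.5M. The microglial sums, 2798 units at 1M and 2496 at 2M, were highest and lowest in the same arrays. So were those of the other interferon-stimulated genes listed below, at 8150 and 7766 units. The receptor and signalling genes also had that order, at 6868 and 6593 units. The part of any of these lists in these steps was not tested.

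The members were also grouped by the promoter pattern within these steps. Of the 24 measured members with a window, 12 held an ISRE match and 12 did not. The 12 without one were all higher at 1M than at 0.5M, by 0.11 to 0.33 log2, and all lower at 2M than at 1M. Of the 12 with one, 5 were higher at 1M than at 0.5M and 6 lower at 2M than at 1M, over a range of -0.42 to 1.13 log2 in the first step. Among all measured genes without the pattern, 64.8% were higher at 1M than at 0.5M and 59.9% lower at 2M than at 1M, and with the pattern 65.6% and 60.1%. Under cyclic loess the members higher in the first step were 11 of the 12 without a match and 2 of the 12 with one. Under median centring they were 12 and 3. Of all genes without and with the pattern, 55.7% and 55.2% were higher under cyclic loess, and 54.9% and 54.2% under median centring. This grouping was made after the values were seen, carries no test, and shares the 1M array between both steps. Tap1 and Psmb9, both without a match, share 275 bases of their windows.

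**Figure D5:**
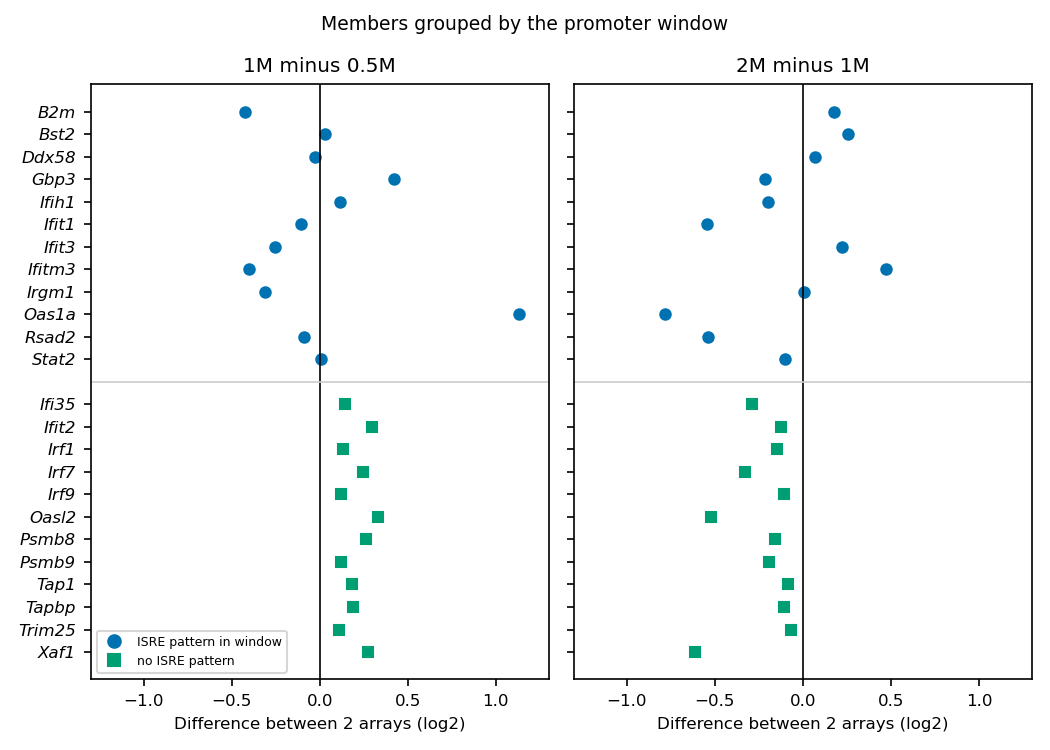
Difference between 2 tumour-bearing arrays in log2 (horizontal axes) for the 24 measured members with a promoter window, 12 with an ISRE match (circles) and 12 without (squares); left, 1M minus 0.5M, right, 2M minus 1M. The squares all lie right of 0 on the left and left of 0 on the right, while the circles lie on both sides.

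Further genes of the pathway were read from 5 lists, and 0 of the genes past the filter in these lists passed either limma test. Interferon genes themselves were dim. Ifnb1 stood at 4.59 log2 in the control and 4.64, 4.85 and 4.78 for 0.5M, 1M and 2M, and Ifng at 5.37, 5.33, 5.68 and 5.42. Both were highest at 1M. Of 9 measured interferon genes 2 were past the filter, and the list had medians of 0.03, 0.25 and 0.20 log2 from control. Ifnl2, one of those past the filter, differed by 0.03, 0.57 and 0.48, with a limma adjusted p of 0.54. Ifna2, below the filter, had the largest mean difference of the list, -0.37 log2, and differed by -0.54, -0.10 and -0.48. Ifna4, also below it, differed by 0.12, 0.55 and 0.32.

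Receptors and signalling genes, 22 measured and 18 past the filter, had medians of -0.02, 0.04 and -0.03 log2 from control. Ifnar1, a subunit of the type I interferon receptor, stood at 8.75 log2 in the control and 8.58, 8.42 and 8.39 in the tumour-bearing arrays in the order of cell number. The values descended in that order (mean difference -0.29 ± 0.10 log2, limma adjusted p = 0.44). Il10rb, a subunit shared with interferon lambda, differed by -0.19, -0.35 and -0.35 log2 and Tlr3, a sensor of double-stranded RNA, by -0.28, -0.55 and -0.34, with limma adjusted p values of 0.41 and 0.38. Ifngr1, a subunit of the interferon gamma receptor, differed by -0.02, -0.07 and -0.18. Ifnlr1, the specific lambda receptor subunit, lay below the filter at 0.20, 0.56 and 0.52 log2 from control. Unadjusted, 4 of the 18 had a p under 0.05 in the limma test against control, where 10.8% of all genes did. Of the lists that follow, Isg15 and H2-T23 have no values here.

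Of the negative regulators 9 were measured, with medians of 0.06, 0.02 and 0.10 log2 from control and 0 of 8 at an unadjusted p under 0.05 in the limma test against control, where 10.8% of all genes were. Socs3, which blunts cytokine receptor signalling and also answers to the interleukin-6 family, differed by 0.15, 0.55 and 0.40 log2 (limma adjusted p = 0.47), and Socs1 by 0.06, 0.45 and 0.32. Ptpn2, a phosphatase gene of the same pathway, differed by -0.08, -0.42 and -0.42. Among 44 other interferon-stimulated genes, 17 of them past the filter, the medians were 0.02, 0.08 and -0.01 log2. Isg20, an exonuclease gene, had the largest mean difference from control, 0.49 log2, at 6.65 log2 in the control and 7.23, 7.07 and 7.12 in the tumour-bearing arrays (limma adjusted p = 0.38). Its tumour-bearing values were close together and above the control. Mx1, a classical marker of type I interferon, was very dim at 3.91 log2 in the control and 3.71, 3.95 and 3.69 for 0.5M, 1M and 2M. Ifi205 and Cxcl11, both below the filter, averaged -0.44 and 0.34 log2 from control.

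In the list of other MHC class I and peptide-loading genes, 23 were measured and the medians were -0.04, 0.05 and -0.07 log2 from control. Psmb10, the remaining immunoproteasome subunit, differed by -0.00, 0.04 and -0.06 log2 and its constitutive counterpart Psmb7 by -0.30, -0.50 and -0.48 (limma adjusted p = 0.38 for Psmb7). Psmb5, the constitutive counterpart of Psmb8, differed by -0.03, 0.03 and -0.15. Psme1, an activator subunit of the immunoproteasome, differed by 0.23, 0.42 and 0.21 log2 and Tapbpl, a relative of tapasin, by 0.15, 0.22 and 0.45. Neither passed limma, with adjusted p values of 0.46 and 0.49.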

How the data were processed

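The authors deposited a table of log2 values for each array, computed with RMA per the submitters' processing notes. The RMA version, the arrays it covered and any genome build were not given in the sources used here. RMA aligns intensity distributions, so a change common to all transcripts is removed. The table holds 35556 probe sets with 0 missing values. The platform annotation gives 21789 of them 1 symbol and 1621 several, and the others were unnamed here. The entrez numbers of the 32 measured members matched the RefSeq table of GRCm38.p6. Where a gene had more than 1 probe set (999 genes), the brightest on average stood for it. Differences between arrays are differences of log2 values, counted at 0.5 log2 with no p-value. Tests used limma 3.58.1 in R 4.3.3 (lmFit, eBayes, two-sided, Benjamini-Hochberg over the 11963 genes at or above 6.59 log2), with the control as 0 cells in the trend, and were tested on simulated data. Plots and other values came from Python 3.11.15 with pandas 2.3.3, numpy 2.4.6 and matplotlib 3.10.9. No column lacked a sample. The members and lists were chosen with earlier results of these data known, so no list carries a test of its own. Values in every array are given for the 12 members with the largest mean difference from control and the 3 highest and 3 lowest at each cell number, and for others chosen by role; genes named from each pathway list are up to 3 genes with the largest mean difference and a few fixed ones. Alternatives were averaged probe sets, other filters, cyclic loess, median centring, another size and each array left out; those for the steps between tumour-bearing arrays were chosen after seeing the data.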

Additional observations from a re-analysis of the deposited data

Results flagged for a closer look

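In 2 members the difference from control had opposite directions, of at least 0.25 log2 each, at different cell numbers. Oas1a was 1.13 log2 higher at 1M than at 0.5M and lower at 2M than at 1M, a difference of -0.785. Xaf1 was lower at 2M than at 1M, at -0.61 log2. With 1 array per group these differences were not tested, and both genes lie below the filter.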

How the results depend on the processing

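Members at least 0.5 log2 below control numbered 1, 1 and 5 at 0.5M, 1M and 2M; with members past the filter only they were 0 at 0.5M and 2 at 2M, and with cyclic loess 2 at 1M. At a size of 0.25 log2 they were 8, 4 and 10. Those above control, 0 in each array, were 1 at 0.5M with cyclic loess and 1 with median centring, and at 0.25 log2 they were 1, 7 and 1. The mean difference of Oas1a was -0.19 log2 and, with 1 array left out, ran from -0.51 without 1M to 0.0544 without 0.5M. By limma 0 members passed in any of the 18 alternatives run. Over all genes the calls against control were 6, with 1 when no filter was set, 2 under a filter at the 60th percentile and 3 when the 1M array was left out; the trend gave 0, and 38 without the 0.5M array, 58 without the 1M array and 3 without the control array. No paired analysis was possible because each group is 1 array. Of the measured members 16 are dim, and no detection calls or scanner values were used here, so signal over background is unknown.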
